A study of Mus musculus with 5 samples.

Results

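The genes described here are 10 that neutrophils switch on late in their maturation: *Ngp*, *Ltf*, *Camp*, *Lcn2*, *Mmp8*, *Mmp9*, *Cd177*, *S100a8*, *S100a9* and *Chil3*. They were picked by name as secondary granule and late neutrophil genes, by a rule that uses no measured value, although earlier results of these data were known when the list was made. All 10 were found among the 24046 gene symbols of the expression table, and all 10 were among the 13661 genes tested. The RNA came from mouse hematopoietic stem cells (HSCs), so the readings answer how much late neutrophil transcript was present in a sorted stem cell population, and whether it differed when *Syncrip* was deleted. SYNCRIP is an RNA-binding protein.

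Every donor marrow carried floxed *Syncrip* alleles on both chromosomes. WT libraries (WT 1, WT 2 and WT 3) came from Mx1 Cre- marrow and KO libraries (KO 2 and KO 3) from Mx1 Cre+ marrow. In both groups the marrow was transplanted into CD45.1 congenic recipients, pIpC (polyinosinic:polycytidylic acid, an inducer of interferon) was injected 6 weeks later, and cells were collected after another 3 weeks, 9 weeks after transplantation. Sorted cells were CD45.2+, hence donor-derived, and lineage-negative, Sca1+, cKit+, CD150+ and CD48-. The Mx1 promoter responds to interferon in many blood cells, so deletion was not restricted to HSCs. Only the donor marrow carried the floxed alleles and Mx1 Cre, so the recipients' own cells were outside the deletion. Exposure to pIpC was common to both genotypes. Per the study's methods, antibodies against Gr1, an antigen of neutrophils and monocytes, were part of the lineage cocktail. The study's methods speak of biological replicates in general, but the labels do not tie these 5 libraries to separate mice, so p-values measure only the spread between these samples, part of which may be technical.

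Neutrophils fill their granules in sequence. Primary (azurophil) granules, which hold myeloperoxidase and serine proteases, are loaded at the promyelocyte stage. Secondary (specific) granules with lactoferrin and cathelicidin follow at the myelocyte stage, gelatinase granules come after, and the factor C/EBPε is required for the secondary set. Transcripts of the late sets are therefore hallmarks of maturing neutrophils in the marrow, where these cells are abundant, and a phenotypic HSC is defined by surface antigens rather than by these genes.

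Depth ran from 12539599 reads in KO 3 and 18308876 in KO 2 to between 21748781 and 22779536 in the WT libraries, so no KO library was as deep as any of the WT libraries. *Syncrip*, the targeted gene, showed normalized read counts of 1944, 1440 and 1794 in WT and of 294 and 343 in KO, which did not overlap. Its fitted log2 difference was -2.43 (SE 0.22, limma adjusted p = 0.0352). That call was lost without any one of the WT libraries (limma adjusted p = 0.209, 0.164 and 0.203), with no filter (0.0503), with array weights (0.0594) and with a length and GC trend removed (log2 difference -1.53, 0.138). All 13 HSC markers examined had reads in every library, among them *Kit* with 8007 to 10741 and *Procr* with 152 to 527 normalized read counts. *Ly6g*, the usual marker gene of mature mouse neutrophils, was not analysed here, and *Itgam*, which encodes the CD11b chain of neutrophils and monocytes, stood at 7074, 10792 and 11353 in WT and at 5158 and 2313 in KO. KO 2 held adipocyte transcripts that the other libraries nearly lacked, at 0.153% of its reads against 0.00449% to 0.00670% elsewhere, led by *Fabp4* at 7687 and *Ucp1* at 5622. Fewer cells of a type and less RNA per cell cannot be told apart in such bulk samples.

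Promoter sequences are shown for 3 members, because late granule genes include known targets of the myeloid factors C/EBP and PU.1 and because these members span the range of levels. RefSeq promoter windows of assembly GRCm38.p6 (250 bases before and 50 after the start) matched 9 of the 10 members by symbol. *Mmp9* had no entry. Both strands were searched for TTGCNNAA, a core of C/EBP sites, for GAGGAAGT, a site of PU.1, and for the letters TATAAA, the box bound by the TATA-binding protein. TTGCNNAA was present in 5 of the 9 windows, those of *Ngp*, *Ltf*, *Lcn2*, *Mmp8* and *S100a9*, and in 10.8% of 32851 promoters genome-wide. GAGGAAGT was present in *Mmp8* and *S100a8* and in 3.20% of all promoters, and TATAAA in *S100a8*, *S100a9*, *Chil3*, *Cd177* and *Mmp8* and in 13.6%. The search letters did not overlap one another in these windows, and a match is a description of sequence, not of binding.

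Below, each promoter runs 5′ to 3′ on the gene's own strand from 250 bases before to 20 after the RefSeq start, with matches in capitals. *Ngp* (chr9:110419558-110419827, plus strand) carries 2 C/EBP matches beginning 138 and 11 bases before its start, the second read on the opposite strand. The GENCODE M21 annotation starts this gene earlier, at 110419747, so the second match lies within its gene span there. *Mmp8* (chr9:7558179-7558448, plus strand) carries all 3 motifs, beginning 221 (PU.1 letters), 19 (C/EBP letters) and 3 (TATA letters) bases before the start. Its PU.1 and TATA letters were read on the opposite strand, and the TATA letters run across the start. The GENCODE M21 annotation starts this gene later, at 7558456. *S100a8* (chr3:90668821-90669090, plus strand) carries the PU.1 letters 172 bases before the start, read on the opposite strand. Its TATA letters begin 30 bases before the start, and it has no C/EBP match. The GENCODE M21 annotation starts this gene earlier, at 90668978, so the TATA letters lie within its gene span there.

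Ngp: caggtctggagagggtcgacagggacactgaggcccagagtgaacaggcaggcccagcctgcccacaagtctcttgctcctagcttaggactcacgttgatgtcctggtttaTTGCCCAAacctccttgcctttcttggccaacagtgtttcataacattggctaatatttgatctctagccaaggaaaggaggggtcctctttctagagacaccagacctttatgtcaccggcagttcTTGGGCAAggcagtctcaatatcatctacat

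Mmp8: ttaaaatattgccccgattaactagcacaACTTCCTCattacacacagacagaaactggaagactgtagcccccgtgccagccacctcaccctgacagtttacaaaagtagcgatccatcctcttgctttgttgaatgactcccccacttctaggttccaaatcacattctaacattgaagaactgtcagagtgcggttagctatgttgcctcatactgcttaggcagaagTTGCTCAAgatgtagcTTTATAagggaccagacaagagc

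S100a8: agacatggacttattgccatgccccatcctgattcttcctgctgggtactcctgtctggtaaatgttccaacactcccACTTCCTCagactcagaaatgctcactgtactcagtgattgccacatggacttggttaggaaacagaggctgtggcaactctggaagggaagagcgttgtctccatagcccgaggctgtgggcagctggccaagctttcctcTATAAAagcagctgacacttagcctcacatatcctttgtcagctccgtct

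In WT HSC libraries most members were among the most abundant transcripts. The exceptions were *Mmp9*, which ranked 779, 312 and 326 in WT 1, WT 2 and WT 3, and *Mmp8*, which ranked 3452, 2424 and 2442. *Ngp* ranked 1, 2 and 1 among all genes by normalized read count in WT 1, WT 2 and WT 3, and *Ltf* ranked 3 in each. Of the 10 genes with the highest mean over the 5 libraries, 6 were members, and 7 of the top 20. Together the 10 genes took 4.93%, 4.70% and 5.64% of the reads in WT, and 3.33% and 1.29% in KO 2 and KO 3. WT libraries averaged 5.09% ± 0.489 (SD, n = 3), KO libraries averaged 2.31% ± 1.44 (SD, n = 2), or 45.4% of WT, and both KO libraries were below all WT libraries. In both KO 2 and KO 3 *Ngp* ranked 3. *S100a9* ranked 4, 8 and 4 in WT, 6 in KO 2 and 46 in KO 3, and *Chil3* ranked 10, 9 and 10 in WT and 24 and 267 in KO.

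**Figure D1:**
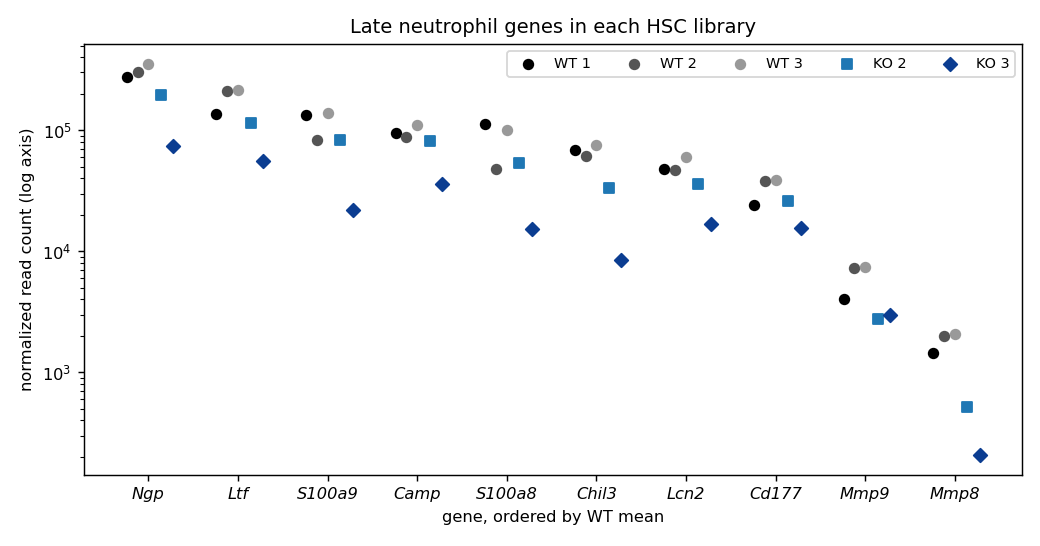
Normalized read count (vertical axis, logarithmic) of each of the 10 late neutrophil genes (horizontal axis, ordered by WT mean) in WT 1, WT 2 and WT 3 (circles), KO 2 (squares) and KO 3 (diamonds). Both KO points lie under all WT points for 7 genes, KO 3 lies under all WT points for every gene, and *Mmp9* is the one gene whose KO 2 point is not above its KO 3 point.

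Levels between genes were compared per length, as TPM. Reads were divided by the kilobases of the longest GENCODE M21 transcript, then scaled to the sum of these values in each library. On that scale *Ngp* had the highest WT mean, 32232 (range 28947 to 35007), followed by *S100a9* at 28603 (20921 to 32828), *S100a8* at 21836 (12633 to 28702) and *Camp* at 16272 (15343 to 17588). *Ltf* came next at 8614 (6334 to 10131), then *Chil3* at 5591 (5224 to 5891), *Lcn2* at 4707 (4404 to 5243) and *Cd177* at 1568 (1141 to 1859). The gelatinase and collagenase genes were far lower, *Mmp9* at 249 (161 to 302) and *Mmp8* at 95.8 (76.0 to 109). Neighbours in this order whose WT ranges overlapped were *Ngp* with *S100a9*, *S100a9* with *S100a8*, *S100a8* with *Camp*, and *Chil3* with *Lcn2*. The other neighbours were separated in every WT library.

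Among the soluble antimicrobial proteins of secondary granules, *Ngp* encodes neutrophilic granule protein, which is related to the cystatins and cathelicidins. It lies at chr9:110419747-110423012 (plus strand, GRCm38, GENCODE M21). WT 1, WT 2 and WT 3 had 277744, 303577 and 355453 normalized read counts, KO 2 had 195888 and KO 3 had 73449. Both KO libraries were below all WT libraries, and the KO mean of 134668 ± 86577 (SD, n = 2) was 43.1% of the WT mean of 312258 ± 39575 (SD, n = 3). This gave a log2 fold change of -1.37 (SE 0.40), with a limma adjusted p of 0.0904 and a DESeq2 adjusted p of 0.0106.

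*Ltf* (chr9:111019271-111042767, plus strand) encodes lactoferrin, the iron-binding protein of the specific granule. It had 136412, 210847 and 213687 normalized read counts in WT 1, WT 2 and WT 3, while KO 2 had 114114 and KO 3 had 55995. The groups did not overlap, though KO 2 was closer to WT 1 than WT 1 was to the other WT libraries. The fitted log2 fold change, -1.20 (SE 0.35), had an adjusted p of 0.0921 by limma and of 0.00878 by DESeq2.

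*Camp* (chr9:109847379-109849617, minus strand) encodes the mouse cathelicidin precursor CRAMP, an antimicrobial peptide. Its normalized read counts were 94545, 88236 and 110771 in WT and 82055 and 35703 in KO 2 and KO 3. KO 2, at 83.9% of the WT mean, sat just under the lowest WT library, and KO 3 stood at 36.5%. For a log2 fold change of -0.85 (SE 0.34), neither limma (adjusted p = 0.150) nor DESeq2 (adjusted p = 0.0956) placed it past the 0.05 limit.

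*Lcn2* (chr2:32384633-32388252, minus strand) encodes lipocalin 2, which binds bacterial siderophores and so withholds iron. Its normalized read counts were 47511, 46630 and 59859 in WT, 35718 in KO 2 and 16842 in KO 3. Both KO libraries lay under the WT range. Limma gave a log2 fold change of -1.06 (SE 0.31) with an adjusted p of 0.0929, and DESeq2 gave -0.97 with an adjusted p of 0.0196, past the p limit and short of a 2-fold difference.

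Of the granule metalloproteinases, *Mmp8* (chr9:7558456-7568485, plus strand) encodes neutrophil collagenase of the specific granule. It had 1447, 2013 and 2058 normalized read counts in WT, 521 in KO 2 and 207 in KO 3. No KO value came near the WT range, and the KO mean was 19.8% of WT, the lowest percentage of the 10 genes. Its log2 fold change was -2.46 (SE 0.37), with a limma adjusted p of 0.0815 and a DESeq2 adjusted p of 9.0e-07. Even in KO 3 it rested on 136 reads, the smallest read number behind any member value.

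*Mmp9* (chr2:164940780-164955850, plus strand) encodes gelatinase B, the marker of the later gelatinase granules. Its normalized read counts were 4021, 7264 and 7460 in WT and 2739 and 2977 in KO 2 and KO 3. The groups did not overlap, and the KO libraries were close to each other, at 43.8% and 47.6% of the WT mean. With a log2 fold change of -1.08 (SE 0.27), *Mmp9* had an adjusted p of 0.0820 by limma and of 0.00336 by DESeq2.

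At the cell surface, *Cd177* (chr7:24743983-24760311, minus strand) encodes a GPI-anchored neutrophil antigen. It had 24311, 38283 and 38432 normalized read counts in WT, 26262 in KO 2 and 15544 in KO 3. The groups overlapped, since KO 2 exceeded WT 1. The log2 fold change of -0.71 (SE 0.29) was the smallest of the 10 and passed neither test (limma adjusted p = 0.161, DESeq2 adjusted p = 0.0858).

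*S100a8* and *S100a9* encode the partners of calprotectin, the calcium- and zinc-binding dimer that makes up much of the neutrophil cytosol. *S100a8* (chr3:90668978-90670035, plus strand) and *S100a9* (chr3:90692632-90695721, minus strand) lie 22596 bases apart with 0 protein-coding genes between them. *S100a8* had 112230, 47731 and 100033 normalized read counts in WT, 53450 in KO 2 and 15319 in KO 3. *S100a9* had 133775, 82381 and 138252 in WT, 83227 in KO 2 and 21802 in KO 3. For both genes WT 2 was far below WT 1 and WT 3 and slightly below KO 2, so the groups overlapped, while KO 3 was well under every other library. Their log2 fold changes were large, -1.51 (SE 0.53) for *S100a8* and -1.43 (SE 0.51) for *S100a9*, but these SEs were the largest of the 10 members and the limma adjusted p was 0.121 for each. DESeq2 gave adjusted p-values of 0.185 for *S100a8* and 0.212 for *S100a9*. The ratio of *S100a9* to *S100a8* was 1.19, 1.73 and 1.38 in WT and 1.56 and 1.42 in KO, inside the WT range.

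*Chil3* (chr3:106147554-106167564, minus strand) encodes the chitinase-like lectin Ym1, which neutrophil precursors and alternatively activated macrophages make. Its normalized read counts were 68353, 60995 and 75338 in WT, the tightest WT range of the 10 genes, and 33107 in KO 2 and 8537 in KO 3. Neither KO library reached the WT range, and the KO mean was 30.5% of WT. Its log2 fold change, -2.02 (SE 0.47), had an adjusted p of 0.0816 by limma and of 0.00276 by DESeq2. *Chil4*, a near-identical copy, had 53.3, 23.4 and 48.0 normalized read counts in WT and 15.4 and 10.6 in KO, and how reads were shared between the copies is uncertain.

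**Figure D2:**
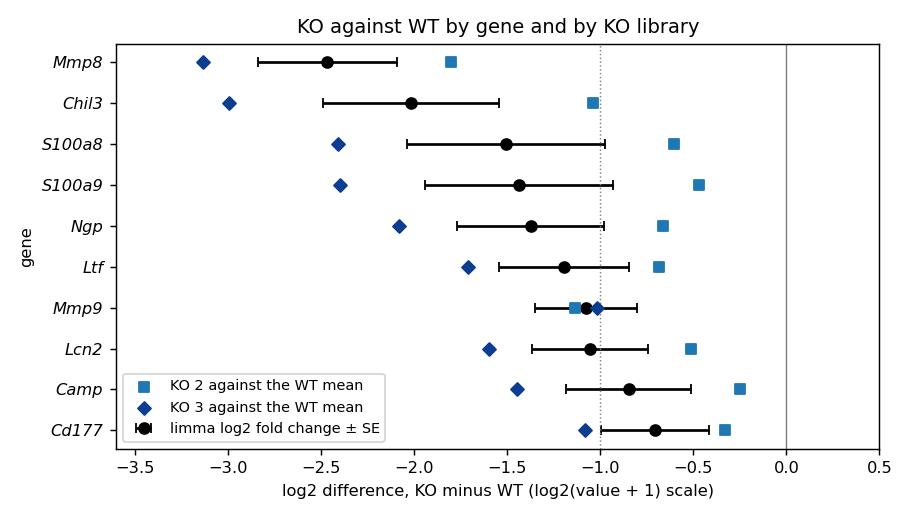
Log2 difference between KO and WT on the log2(value + 1) scale (horizontal axis) for each gene (vertical axis), with the limma log2 fold change ± SE (circles and bars) and the difference of KO 2 (squares) and of KO 3 (diamonds) from the WT mean. All values are below 0, the solid line, and the dotted line marks a 2-fold lower level. KO 3 is farther from 0 than KO 2 for every gene but *Mmp9*.

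Across the 10 members, the median log2 fold change was -1.28, beside 0.02 over all 13661 genes tested, and each member had a negative value. No member passed a limma adjusted p under 0.05 with a 2-fold difference, a rule under which 1 gene (0.00732%), *Syncrip*, was lower in KO among all genes. At an unadjusted limma p under 0.05 all 10 members were lower, as were 14.5% of all genes. At a limma adjusted p under 0.1 with a 2-fold difference, 6 members were lower (*Ngp*, *Ltf*, *Lcn2*, *Mmp8*, *Mmp9* and *Chil3*), beside 3.85% of all genes. Both KO values lay below all WT values for 7 members and for 23.2% of all genes, and above all WT values for 0 members and for 23.9% of all genes.

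The count models differed. DESeq2 on the recovered reads called 5 members lower (*Ngp*, *Ltf*, *Mmp8*, *Mmp9* and *Chil3*) at an adjusted p under 0.05 and 2-fold, beside 4.61% of the 12170 genes with an adjusted p. edgeR's quasi-likelihood test called 0 members by the same limits, beside 1 gene (0.00732%) lower over all genes, and had 9 of 10 members lower at an unadjusted p under 0.05, beside 13.8% of all genes. Only *Mmp8* and *Chil3* were called by DESeq2 whichever library was left out. It called 2 members without WT 3 (1.41% of all genes lower), 3 without KO 3 (1.15%), 5 without WT 1 (2.33%), 8 without WT 2 (4.26%) and 10 without KO 2 (11.2%), so the fit that called most members also called most genes. With limma, leaving out KO 2 placed 9 members, all but *Mmp9*, past the limits, beside 10.4% of all genes lower. Leaving out a WT library placed 0 members and 0 genes past them, and leaving out KO 3 placed 0 members and 1 lower gene.

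The KO libraries were unlike each other in size of difference. The median difference of the 10 members from the WT mean was -0.63 on the log2 scale in KO 2 and -1.90 in KO 3, while the WT libraries themselves lay at -0.13, -0.08 and 0.22. In KO 2, 3 members (*Mmp8*, *Mmp9* and *Chil3*) were at most at 50% of the WT mean, beside 6.88% of all genes. In KO 3 all 10 were, beside 17.2% of all genes. The level in KO 2 was 1.69 (*Cd177*) to 3.88 (*Chil3*) times that in KO 3 for 9 members, and 0.920 times for *Mmp9*. KO 3 was also the shallowest library, had the highest share of reads on the ribosomal RNA repeat *Rn45s* (2.10%, where KO 2 had 1.39% and WT 0.600% to 0.795%), and the highest share on the 13 HSC markers (0.147%, where KO 2 had 0.0850% and WT 0.0720% to 0.122%). The part of these differences in the member values was not tested.

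The members did not keep fixed proportions. *Ngp* made up 30.8% to 34.2% of the 10-gene sum in WT, 31.2% in KO 2 and 29.8% in KO 3. *Camp* took a larger part in KO (13.1% and 14.5%) than in WT (9.94% to 10.5%), and *Lcn2* 5.70% and 6.84% against 5.25% to 5.44%. *Chil3* took a smaller part, 5.28% and 3.46% against 6.84% to 7.59%, and *Mmp8* 0.0831% and 0.0838% against 0.161% to 0.227%. The ratio of *Ngp* to *Camp* was 2.94, 3.44 and 3.21 in WT and 2.39 and 2.06 in KO, so that it was below the WT range in both KO libraries. Shares of *Ltf*, *S100a8*, *S100a9*, *Cd177* and *Mmp9* overlapped between the groups. These proportions were not tested, as parts of a sum are not independent of one another.

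**Figure D3:**
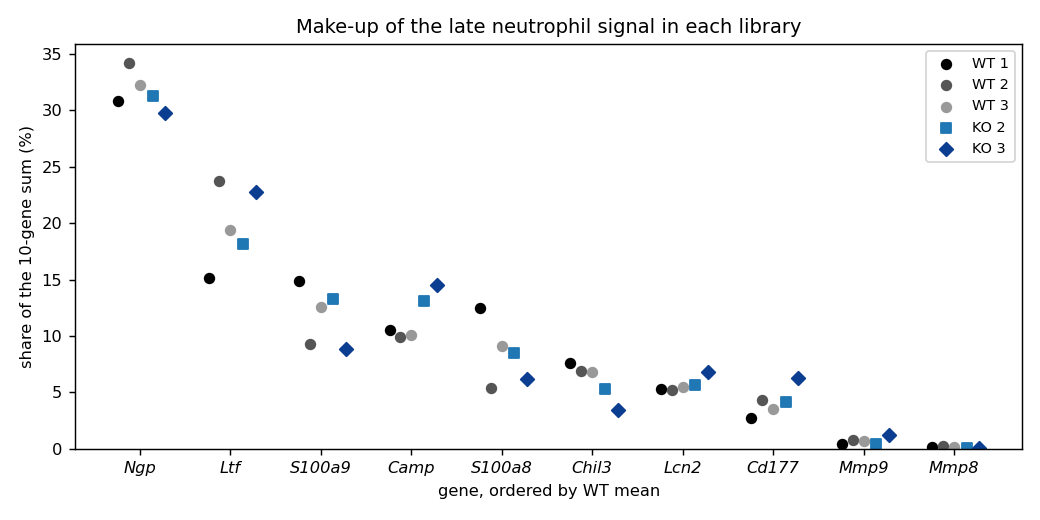
Share of the summed normalized read count of the 10 late neutrophil genes (vertical axis, percent) taken by each gene (horizontal axis) in WT 1, WT 2 and WT 3 (circles), KO 2 (squares) and KO 3 (diamonds). The KO points of *Camp* (13.1% and 14.5%) lie above the WT points and those of *Chil3* (5.28% and 3.46%) below them, while *Ngp* takes 30.8% to 34.2% in WT.

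Other genes of the neutrophil programme were read from 4 lists. Of 26 further granule contents, 24 were tested and 22 had a negative log2 fold change (median -1.34). By limma 0 of the 24 were called and 17 were lower at an unadjusted p under 0.05 (all genes, 14.5%), DESeq2 called 11 lower (all genes, 4.61%) and edgeR 0. *Lyz2*, which encodes lysozyme M, had 70244, 86086 and 105356 normalized read counts in WT and 58506 and 23385 in KO, which is a log2 difference of -1.22 (limma adjusted p = 0.0972). *Anxa1*, the gene of the anti-inflammatory annexin A1 of gelatinase granules, had 30608, 28973 and 38499 in WT and 16965 and 5583 in KO, which is a log2 difference of -1.74 (limma adjusted p = 0.0815). For *Itgam* the log2 difference was -1.46 (limma adjusted p = 0.0815). The haptoglobin gene *Hp* overlapped between groups, with a log2 difference of -0.40 (limma adjusted p = 0.315), and *Fcnb*, the ficolin B gene, did not, at -1.08 (limma adjusted p = 0.103).

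Surface and signalling genes of late neutrophils were also mostly negative. Of 28 listed, 25 were tested and 24 had a negative log2 fold change (median -1.13). By limma 0 were called and 16 were lower at an unadjusted p under 0.05 (all genes, 14.5%), DESeq2 called 10 lower (all genes, 4.61%), and edgeR called 0. The 10 included *Il1b*, *Fpr2* and *Cxcr2*, named here after their values were seen. *Il1b*, an inflammatory cytokine gene, had 610, 687 and 1090 normalized read counts in WT and 156 and 166 in KO, and the formyl peptide receptor gene *Fpr2* 372, 229 and 374 against 107 and 54.7. *Cxcr2*, the chemokine receptor gene used in marrow egress, had 551, 778 and 887 against 364 and 169. The most abundant of the list showed smaller values that did not pass: *Ncf1* -0.67 and *Ncf4* -0.35, subunits of the NADPH oxidase, *Itgb2* -0.67, the integrin β2 chain, and *Csf3r* -0.59, the G-CSF receptor (limma adjusted p = 0.173, 0.337, 0.142 and 0.190, log2 fold changes).

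Primary granule genes, which precede the members in maturation, were mixed. All 6 listed were tested, and 4 had a negative log2 fold change (median -0.33). None was called by limma, DESeq2 or edgeR, and 2, *Ms4a3* and *Cst7*, were lower at an unadjusted limma p under 0.05 (all genes, 14.5%). *Ms4a3*, expressed in granulocyte and monocyte progenitors, had 8705, 6554 and 9444 normalized read counts in WT and 6914 and 1555 in KO, a log2 difference as large as the members' median (-1.31, limma adjusted p = 0.148). *Cst7*, the cystatin F gene, had 1414, 1623 and 1761 in WT and 1234 and 468 in KO, with no overlap (-1.07, limma adjusted p = 0.116). Both were named for passing that limit, after their values were seen. *Mpo*, the myeloperoxidase gene, had 193847, 343980 and 301744 normalized read counts in WT and 286876 and 175652 in KO (log2 fold change -0.28, limma adjusted p = 0.616). *Elane*, the neutrophil elastase gene, stood at 0.02 on the log2 scale (limma adjusted p = 0.968), whose sign turned negative under 6 alternatives, TMM scaling among them. *Prtn3* (proteinase 3) stood at 0.30 (limma adjusted p = 0.388) and *Ctsg* (cathepsin G) at -0.38 (limma adjusted p = 0.380). The signs of *Mpo*, *Prtn3* and *Ctsg* also turned under some alternatives. The summed members were 2.92, 1.83 and 2.51 times the summed primary granule genes in WT and 1.40 and 0.883 times in KO 2 and KO 3. Both KO ratios were therefore below the WT range, a difference of the 2 sums that was not tested.

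**Figure D4:**
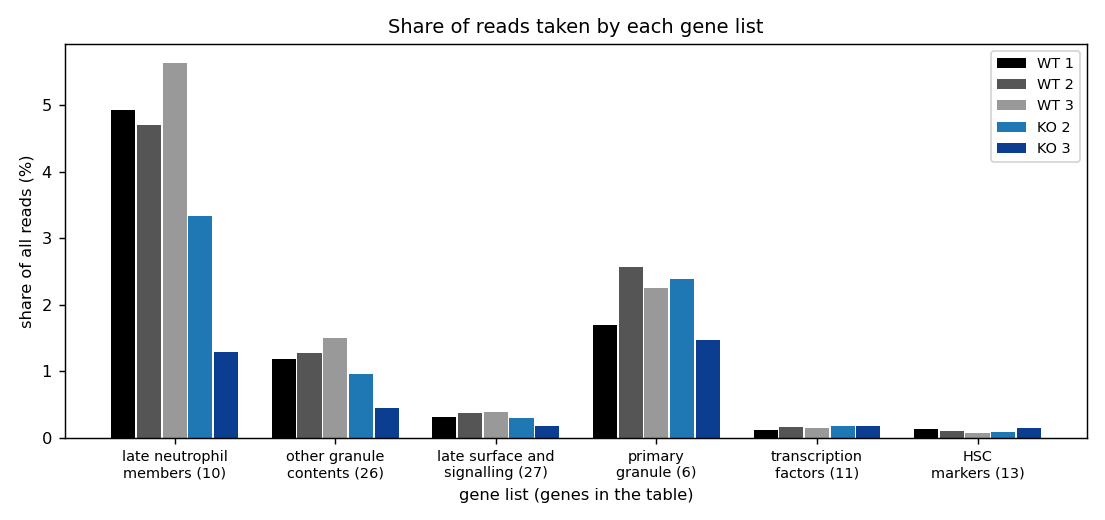
Share of all reads (vertical axis, percent) taken by each gene list (horizontal axis, with the number of listed genes in the table) in each library, 1 bar per library. The 10 members take 4.70% to 5.64% in WT, 3.33% in KO 2 and 1.29% in KO 3, while the primary granule bars of the KO libraries (2.39% and 1.46%) stand on either side of the lowest WT bar (1.69%).

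Transcription factors of granulocyte differentiation were mostly positive in sign. All 11 were tested, and 2 had a negative log2 fold change (median 0.37). By limma 0 were called and 2 were higher at an unadjusted p under 0.05, beside 13.3% of all genes, and DESeq2 and edgeR called 0. *Cebpe*, required for secondary granule genes, stood at 0.08 (limma adjusted p = 0.858), with the sign turning under 5 alternatives, quantile scaling among them. *Cebpb* had 1874, 3239 and 2204 normalized read counts in WT and 4576 and 4316 in KO, with no overlap and a log2 difference of 0.90 (limma adjusted p = 0.0853). That value turned to -0.32 once each library was corrected for a linear trend with transcript length and GC content. *Spi1*, which encodes PU.1, stood at 0.45 (limma adjusted p = 0.155), also turning negative (-0.19) with that trend removed, and *Cebpd* at 0.43 (limma adjusted p = 0.188).

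**Figure D5:**
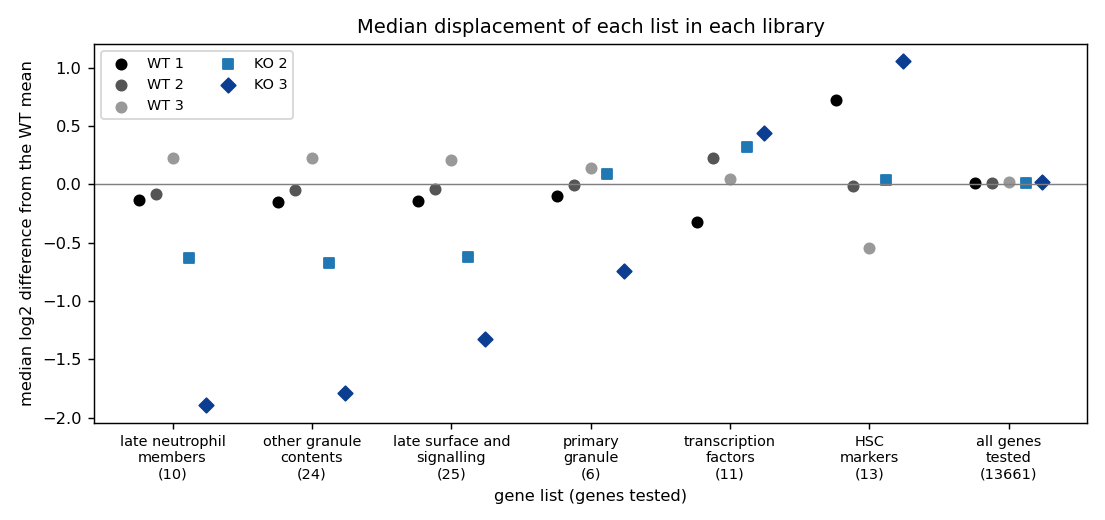
Median log2 difference from the WT mean (vertical axis, log2(value + 1) scale) over the tested genes of each list (horizontal axis, with the number tested) in each library. The members lie at -0.63 in KO 2 and -1.90 in KO 3, other granule contents at -0.68 and -1.79, and all genes tested near 0 in every library.

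Markers of other cells were read beside the members. Monocyte genes, of which 9 of 10 were in the table, took 0.0771% to 0.0918% of reads in WT, 0.0623% in KO 2 and 0.0275% in KO 3, and 8 were tested. DESeq2 called 4 of them lower (all genes, 4.61%), and limma 0 with 5 lower at an unadjusted p under 0.05 (all genes, 14.5%). Genes that the gate should exclude (9 of 10 in the table) took 0.0606% to 0.0778% in WT, 0.0554% in KO 2 and 0.0204% in KO 3. Most of both sums was a single shared gene, *Ly6c2*, with 10560, 10705 and 14255 normalized read counts in WT and 9732 and 3578 in KO, so they are not separate readings. *Cd48*, also excluded by the gate, had 696, 601 and 768 in WT against 459 and 191 in KO.

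Erythroid genes (10 of 10) took 0.341% to 0.433% of reads in WT, 0.317% in KO 2 and 0.214% in KO 3, a sum led by the carbonic anhydrase genes *Car2* and *Car1*. The list was mixed, with 4 of 10 negative log2 fold changes and a median of 0.31. *Hba-a1* and *Hba-a2* had identical values in every library, so they are not separate readings. *Car1* had 15235, 17102 and 24050 normalized read counts in WT and 9703 and 5733 in KO, whereas *Klf1*, an erythroid transcription factor gene, had 4231, 5800 and 6500 in WT and 8090 and 7671 in KO. The erythropoietin receptor gene *Epor* also lay above all WT libraries in both KO libraries, with a KO mean at 150% of WT. Eosinophil and basophil genes (10 of 10) took 0.0257% to 0.0640% in WT, 0.0424% in KO 2 and 0.0800% in KO 3, a sum led by *Prg2*, *Prss34* and *Epx*. Of these 10 genes, 6 had negative values (median -0.46), and DESeq2 called 2 lower (all genes, 4.61%), the mast cell and basophil genes *Cpa3* and *Ms4a2*, with KO means at 20.4% and 19.9% of WT. Other basophil genes of the list overlapped between the groups, with KO means at 144% of WT for *Prss34*, 67.7% for *Mcpt8* and 61.7% for *Fcer1a*. Lymphoid genes (10 of 11) took 0.0335% to 0.0372% in WT, 0.0507% in KO 2 and 0.0289% in KO 3. That sum was led by *Nkg7*, at 6139, 5794 and 6486 normalized read counts in WT and 9010 and 4890 in KO. T cell markers were low in every library, from 0 to 6.66 normalized read counts for *Cd3e*, *Cd3g* and *Cd8a*, from 9.11 to 42.8 for *Cd3d*, and from 0 to 57.6, highest in KO 2, for *Cd4*. Stromal genes (9 of 9) were at 0.00381% to 0.0163% in WT and 0.00753% and 0.00394% in KO. The genes named in these lists were chosen after their values were seen. The part of other cells in the member values was not tested. The summed members were 40.3, 46.0 and 78.4 times the summed HSC markers in WT, 39.2 times in KO 2 and 8.80 times in KO 3, so the WT libraries themselves differed widely in this ratio.

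The genes outside the members whose profile over the 5 libraries was nearest to the members' mean profile, by Euclidean distance of centred log2(value + 1) values, were *Braf* (0.084), *Ncapg2* (0.116), *Evi2a-evi2b* (0.153), *Evi2b* (0.158) and *Snora70* (0.159). *Braf* encodes a kinase of the MAPK pathway and had 1000, 979 and 1218 normalized read counts in WT against 637 and 278 in KO. *Ncapg2* encodes a condensin II subunit and had 2465, 2797 and 3148 against 1643 and 717. *Evi2a-evi2b* and *Evi2b* overlap in the genome and can share reads, so they count as 1 reading. No late granule gene was among the 5.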

How the data were processed

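Bulk RNA-seq of sorted HSCs was analysed from 3 WT and 2 KO libraries, grouped by the labelled genotype. The submitters' processing notes named STAR, featureCounts, DESeq2 and mm10, without versions or settings. The use of strand and the gene annotation were not given in the sources used here. Cells had been frozen in TRIzol, and cDNA was amplified with the SMART-Seq v4 Ultra Low Input kit.

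The authors deposited normalized signal: each library's read count per gene symbol had been divided by 1 size factor. All values (100%) were whole multiples of 1 step per library (0.833 to 1.52) within a tolerance of 0.01, so read counts were recovered from the deposited signal by dividing by that step. The reads carried no molecular identifiers, so counting error is a lower limit of the technical error. The authors' table of their own comparison (log2 fold changes and p-values, raw and adjusted) was not used. Counts differed beyond sampling noise between all pairs of libraries (chi-square of 32.6 to 223 per degree of freedom).

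Genes reaching a value of 10 in 2 or more libraries (13661) were tested with limma 3.58.1 (R 4.3.3; lmFit and eBayes with trend) on log2(value + 1), a scale that understates changes of low genes, with no covariate and Benjamini-Hochberg adjustment over all genes. A gene was called at an adjusted p under 0.05 and 2-fold. DESeq2 1.42.0 and edgeR 4.0.16 (quasi-likelihood) on recovered reads, other pseudocounts, filters, scalings and a variance model, the replicate number as a block, a length and GC correction, and leaving out each library were alternatives.

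The text names every member, *Syncrip*, *Itgam*, the 4 most abundant tested genes of each neutrophil list and the 5 nearest profiles. The members, lists, tests and named genes were chosen with earlier results of these data known. Positions came from GENCODE M21 (GRCm38) by symbol.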

Additional observations from a re-analysis of the deposited data

How the results depend on the processing

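With 3 against 2 libraries, depth that was lower in both KO libraries and adipocyte transcripts in KO 2, the counts of calls depended on the tool and on single libraries, while the direction of the members did not: each of the 10 had a log2 fold change below 0 in 16 alternative analyses and in 5 DESeq2 fits without 1 library each, added after the data were seen. A limit of adjusted p under 0.1 gave 6 members, 20 other neutrophil genes and 807 genes in all (526 lower, 281 higher). DESeq2 called 5 members, 21 other neutrophil genes and 1061 genes in all (561 lower, 500 higher), beside 0, 0 and 1 with limma. Over all genes, edgeR called 2, a pseudocount of 10 gave 2, and no filter, array weights and removal of the length and GC trend gave 0 each, with 3963, 3328 and 2253 genes at an unadjusted p under 0.05. Length and GC content were matched by symbol for 13015 tested genes. Quantile scaling moved the members' median from -1.28 to -1.08. Leaving out 1 library at a time, limma gave 0 to 2451 genes in all, 0 to 9 members, 0 to 35 other neutrophil genes and medians of -1.90 to -0.63, where the highest counts came from the fit without KO 2, the counts of 0 genes in all from the fits without a WT library, and the medians' extremes from those without KO 2 and without KO 3. DESeq2 gave 213 to 2529 genes, 2 to 10 members, 6 to 36 other neutrophil genes and medians of -1.92 to -0.68. In fits that left 1 KO library, it was assumed to vary like the WT libraries. *Syncrip* kept its direction, with limma adjusted p-values of 0.0503 with no filter, 0.0594 with array weights, 0.138 with the length and GC trend removed (log2 fold change -1.53), and 0.209, 0.164 and 0.203 without WT 1, WT 2 and WT 3. WT and KO libraries shared replicate numbers only: deviations of KO 2 and WT 2 correlated at -0.06 across genes and those of KO 3 and WT 3 at -0.18, and nothing in the labels pairs them. With the replicate number as a block, 6 genes (4 lower, 2 higher) and 1 member, *Mmp8* (log2 fold change -2.63, limma adjusted p = 0.0289), were called. Over 33 named genes, 576 alternatives gave 18 sign changes, none of them in *Syncrip*, the only named gene that limma called. *Elane* turned to -0.001438 with TMM scaling, -0.016 with array weights, -0.12 with the block and -0.48 after removal of that trend, and ranged from -0.27 without KO 2 to 0.31 without KO 3 (-0.12 without WT 1). *Cebpe* turned to -0.005024 with quantile scaling, -0.12 with the block, -0.73 with the trend removed, and ranged from -0.17 without KO 2 to 0.32 without KO 3 (-0.12 without WT 1). With the trend removed *Prtn3* turned to -0.44, *Spi1* to -0.19 and *Cebpb* to -0.32, *Prtn3* ranged from -0.004220 without KO 2 to 0.60 without KO 3, *Ctsg* from -0.86 without KO 2 to 0.10 without KO 3, and *Mpo* turned to 0.075 with quantile scaling and ranged from -0.63 without KO 2 to 0.077 without KO 3. The causes were not tested.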
